A study of Rattus norvegicus with 16 samples.

Results

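Troponin and tropomyosin isoforms were followed through all 16 probe sets whose single gene symbol was Tnni1, Tnni2, Tnni3, Tnnt2, Tnnt3, Tpm1 or Tpm3, out of 8799 probe sets on a rat oligonucleotide array. They represent 7 genes of 4737 named there: 5 probe sets each for Tpm1 and Tpm3, 2 for Tnni3 and 1 for each of the other genes. The series profiles extraocular muscle, the muscles that move the eye, beside rat skeletal muscle labelled TA. The groups are EOM, with 4 arrays of samples numbered 1 to 4, TA_6h, with 8 arrays and a labelled time of 6 hours, and TA_1h, with 4 arrays and a labelled time of 1 hour. The labels used here state neither the event from which the hours run nor any genotype, strain, age or treatment, and EOM carries no time. Lettered arrays of a number were averaged, which gives 4 numbered TA_6h samples and 2 numbered TA_1h samples. For TA_6h samples 1 and 2 this joins an array without a letter to one lettered b, which is an inference. No label says that a number marks an animal, so the spread behind the p-values is that between samples and could be technical.

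The thin filament of striated muscle is a polymer of actin with tropomyosin lying along it and a troponin complex at regular intervals. Troponin T anchors the complex to tropomyosin, troponin I holds back the interaction of actin with myosin, and troponin C binds calcium and releases that inhibition. Separate genes encode slow, fast and cardiac forms of troponin I (Tnni1, Tnni2 and Tnni3), whereas Tnnt2 encodes the cardiac form of troponin T, which developing skeletal muscle also uses, and Tnnt3 the fast skeletal form. Tpm1 and Tpm3 each give rise to several tropomyosins by alternative promoters and splicing, among them striated, smooth muscle and cytoplasmic forms, with Tpm3 as the source of slow fibre tropomyosin. Extraocular muscle is known for fibre types not found in limb muscle and for myosins that limb muscle uses mainly in development.

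The stretches of 250 bases before the annotated start of 4 of these genes are shown because their probe sets cover the outcomes below: Tnni2 was lower in EOM, Tnnt2 was higher, Tnni1 was not called, and the Tpm1 probe sets differed among themselves. They were taken from RefSeq on GRCr8 and run 5′ to 3′ on the strand of the gene. The Tnni1 stretch is chr13:49781279-49781528 on the plus strand, that of Tnni2 chr1:207024240-207024489 on the plus strand, that of Tnnt2 (the first of 2 listed) chr13:49818873-49819122 on the plus strand, and that of Tpm1 chr8:76543416-76543665 on the minus strand. Capitals mark E boxes (CANNTG, the core sequence bound by MyoD-type factors) and MCAT elements (CATTCC or its complement GGAATG).
Tnni1: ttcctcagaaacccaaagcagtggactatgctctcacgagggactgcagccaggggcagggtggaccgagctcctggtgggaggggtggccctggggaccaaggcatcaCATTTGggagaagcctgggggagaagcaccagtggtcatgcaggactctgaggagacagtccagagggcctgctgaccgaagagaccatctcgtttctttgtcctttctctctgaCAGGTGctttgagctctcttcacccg
Tnni2: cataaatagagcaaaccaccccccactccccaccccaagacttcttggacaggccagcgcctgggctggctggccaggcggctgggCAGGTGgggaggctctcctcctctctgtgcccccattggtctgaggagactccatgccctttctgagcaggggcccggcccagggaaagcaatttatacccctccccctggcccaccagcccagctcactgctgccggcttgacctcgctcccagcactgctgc
Tnnt2: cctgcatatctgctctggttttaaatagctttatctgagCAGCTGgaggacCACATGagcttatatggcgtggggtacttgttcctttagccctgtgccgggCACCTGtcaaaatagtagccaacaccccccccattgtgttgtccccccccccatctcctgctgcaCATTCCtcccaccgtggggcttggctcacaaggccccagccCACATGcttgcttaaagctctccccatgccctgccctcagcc
Tpm1: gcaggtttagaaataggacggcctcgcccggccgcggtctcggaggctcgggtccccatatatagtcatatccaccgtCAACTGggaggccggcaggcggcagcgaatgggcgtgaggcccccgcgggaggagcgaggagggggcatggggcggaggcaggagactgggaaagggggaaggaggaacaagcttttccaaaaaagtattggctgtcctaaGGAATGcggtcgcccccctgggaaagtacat
The search ran on both strands. The Tnnt2 stretch shown holds 4 E boxes and 1 MCAT element, that of Tpm1 1 of each, that of Tnni1 2 E boxes, and that of Tnni2 1 E box. The second Tnnt2 stretch, not shown, holds 1 E box and 0 MCAT elements. E boxes occur in 65.5% and MCAT elements in 12.1% of all 33469 stretches of this length, so such matches describe the letters only. A CArG box, found in 1.5% of all stretches, and a MEF2 site, found in 2.96%, were found in none of the 9 stretches of 6 genes, all but Tnnt3. In the same annotation Tnni1 lies near Tnnt2 on chromosome 13 with 1 gene start between them, and Tnni2 near Tnnt3 on chromosome 1 with 7 between them.

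Intensities are the deposited linear values. Values under a floor of 56.5, the 25th percentile of all values, were raised to it before log2 was taken, and 14 of the 16 probe sets passed the filter of more than the floor on at least 4 arrays. EOM arrays hold 2045 to 2235 values below 0 each and TA arrays none, so the muscle and the way its arrays were summarised cannot be told apart in any EOM comparison. The eye muscle label was checked with Myh13, the extraocular myosin, which read 7213 to 8013 on EOM arrays, against 41.9 to 415 on TA_6h arrays and 142 to 436 on TA_1h arrays. The control for beta-actin had a middle over 3′ ratio under 0.5 on 5 TA arrays (TA_6h 3a, 3b, 4a and 4b, and TA_1h 2b, between 0.146 and 0.390), called low-ratio arrays below. On the other arrays it was 0.891 to 0.978 in EOM and 0.815 to 1.28 in TA.

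With limma and Benjamini-Hochberg adjustment over 7640 probe sets, 5 of the 14 tested members were called at an adjusted p under 0.05 between EOM and TA_6h, 3 higher and 2 lower. The background was 47.2% of all probe sets called, 21.9% higher and 25.3% lower, so the members' 35.7% was below it. Between EOM and TA_1h again 5 of 14 were called, 3 higher and 2 lower, against a background of 37.2%, with 17.7% higher and 19.5% lower. The median log2 difference of the members was 0.29 for EOM minus TA_6h, beside -0.11 over all probe sets, and 0.34 for EOM minus TA_1h, beside -0.09. Both comparisons use the same EOM samples. Where a sample was left out of TA_1h the lone remaining sample was assumed to vary like the other groups. Fewer members, and fewer of all probe sets, were then called against TA_1h. The member count against TA_1h was 3 without EOM sample 3 or 4. Over all probe sets 1243 higher and 1269 lower were called without sample 3, beside 1354 and 1489 in the main fit. Without the low-ratio arrays the member count was 8, beside 1640 higher and 1944 lower over all probe sets. Against TA_6h it stayed at 5 without them, as 4 higher and 1 lower, beside 1585 higher and 1919 lower.

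**Figure D1:**
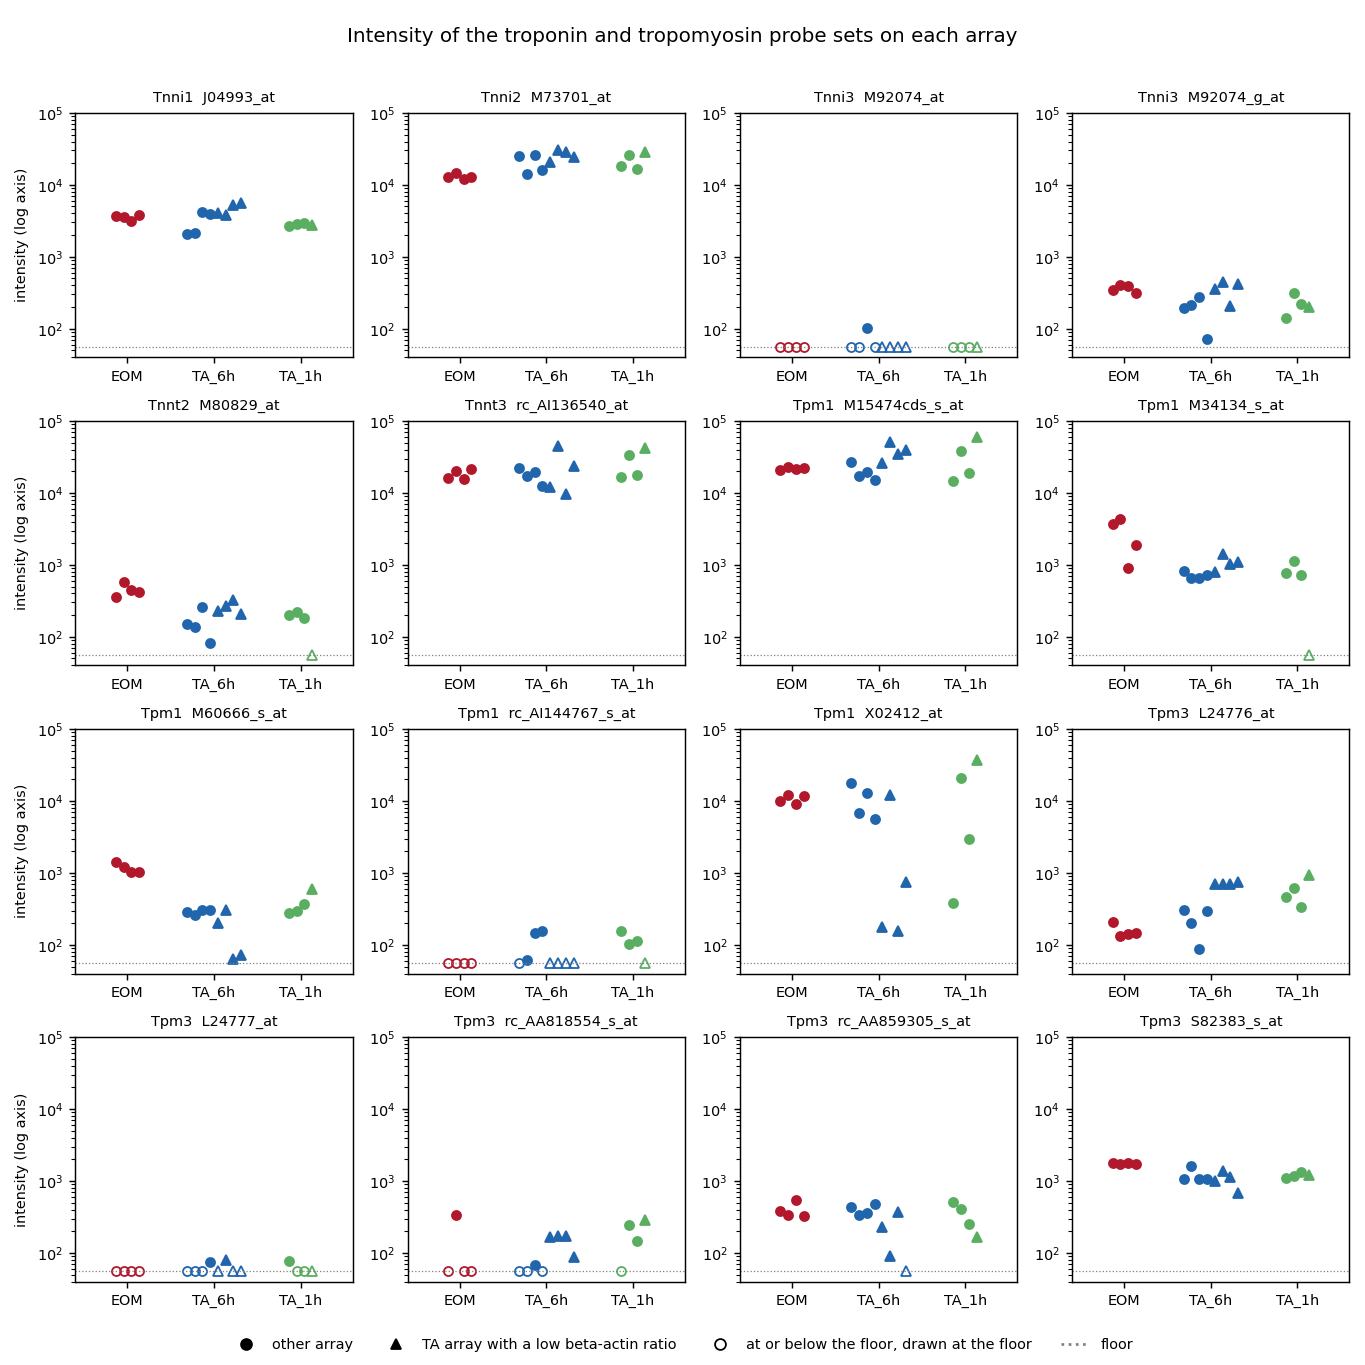
Intensity on a log axis of each of the 16 probe sets on each array, for EOM, TA_6h and TA_1h; triangles are low-ratio TA arrays, and open symbols at the dotted line are values at or below the floor of 56.5. Tpm1 M60666_s_at and Tpm3 S82383_s_at lie higher on all 4 EOM arrays than on any TA array, Tnni2 M73701_at lies lower in EOM than on all TA arrays but TA_6h 1b, and Tpm1 X02412_at scatters from 155 to 37468 among TA arrays.

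Fast troponin I was lower in eye muscle. Tnni2 (M73701_at) read 12804, 14585, 11958 and 12927 on EOM arrays 1 to 4. TA_6h arrays ranged from 13966 to 30298 with a median of 24751, and TA_1h arrays read 18443, 26383, 16416 and 28757. Only TA_6h array 1b lay under the highest EOM array, and all numbered TA samples lay above all EOM samples. The log2 difference was -0.79 ± 0.16 (SE) for EOM minus TA_6h (limma adjusted p = 0.00309), and -0.75 ± 0.20 for EOM minus TA_1h (limma adjusted p = 0.0148). The first call was kept in all 24 alternatives tried, whereas the second was lost in 4, namely without either TA_1h sample (limma adjusted p = 0.075 without sample 1 and 0.0681 without sample 2), with quantile normalization, at -0.36 (limma adjusted p = 0.156), and with scaling to the same median of all values, at -0.65 (limma adjusted p = 0.0515). In bulk muscle, fewer cells of a type and less RNA per cell cannot be told apart. Of the 4 tested probe sets of the other fast fibre genes listed (Myl1, Mylpf, Mybpc2, Actn3, Pvalb and Eno3, of which 4 are on the array), 3 were called lower in EOM than in TA_6h and 4 lower than in TA_1h, and their summed intensity was 44305 to 46433 on EOM arrays, against 73002 to 163309 on TA_6h and 82624 to 151452 on TA_1h arrays. The 12 probe sets of slow fibre genes (Myh7, Myl2, Myl3, Atp2a2, Casq2 and Pln) summed to less on EOM arrays as well, 53597 to 55525, against 68099 to 112682 on TA_6h and 68331 to 88996 on TA_1h arrays, with 5 called higher and 5 lower than in TA_6h and 4 higher and 3 lower than in TA_1h. Against TA_6h 75% of the fast and 83.3% of the slow probe sets were called, beside 47.2% of all probe sets. Against TA_1h 100% and 58.3% were called, beside 37.2%.

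Slow troponin I was not called. Tnni1 (J04993_at) read 3718, 3555, 3132 and 3864 on EOM arrays, against 2041 to 5585 with a median of 3970 on TA_6h arrays and 2644, 2885, 2933 and 2746 on TA_1h arrays. The EOM values fell inside the TA_6h range and above all TA_1h arrays. On the log2 scale the difference was -0.04 ± 0.27 for EOM minus TA_6h (95% interval -0.63 to 0.55, limma adjusted p = 0.912), and 0.35 ± 0.33 for EOM minus TA_1h (95% interval -0.38 to 1.07, limma adjusted p = 0.44). Scaling to the same median of values above 0 gave -0.87 for EOM minus TA_6h, which was called (limma adjusted p = 0.0246). That scaling leaves out EOM's values below 0, and it moved all probe sets, here and below. Their median went from -0.11 to -0.66 for EOM minus TA_6h and from -0.09 to -0.68 for EOM minus TA_1h. Against TA_6h it called 663 higher and 3852 lower of 7802 probe sets.

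Paired arrays agreed closely for Tnni1 while its TA_6h samples spread. Its arrays of a numbered TA sample differed by at most 1.09-fold over 6 pairs, while the TA_6h samples averaged 2076, 4026, 3926 and 5455 for samples 1 to 4, a 2.63-fold range. The TA_1h samples averaged 2764 and 2839. Myh7, the slow myosin heavy chain, was also lowest in TA_6h sample 1 and highest in sample 4: X15939_f_at averaged 7027 in sample 1 and 14501 in sample 4, and X15939_i_at 3457 and 8232. Its arrays within a sample differed by up to 1.92-fold and 3.20-fold. Of the 12 slow fibre probe sets, 5 had this order, among them both for Myh7, and 7 did not. Casq2 (U33287_at), the slow and cardiac calsequestrin, averaged 879 in sample 1 and 268 in sample 4. Samples 3 and 4 consist of low-ratio arrays, and the part of RNA quality in this order was not tested.

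**Figure D2:**
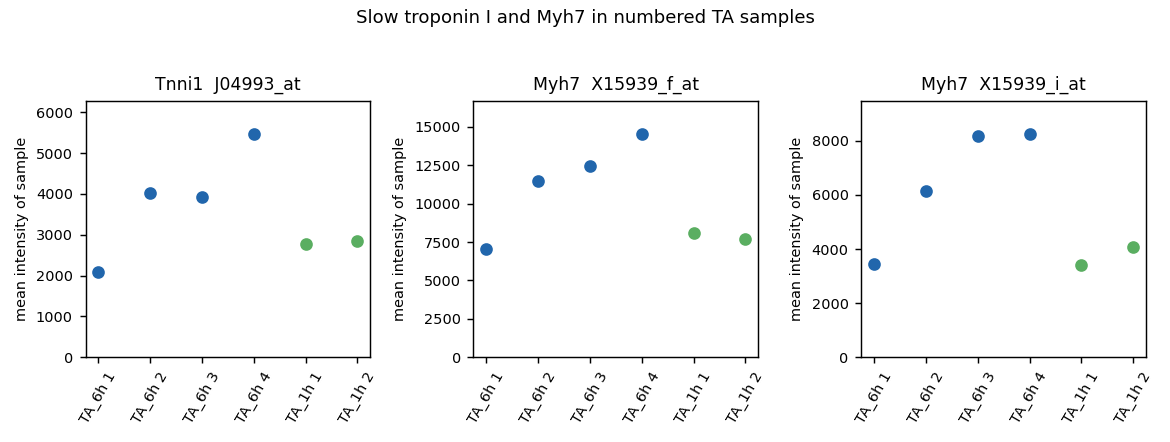
Mean intensity over the arrays of each numbered TA sample for Tnni1 and the 2 Myh7 probe sets, on linear axes from 0. In all 3 panels TA_6h sample 1 is the lowest and sample 4 the highest TA_6h sample.

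Of the 2 probe sets for cardiac troponin I, 1 gave signal above the floor throughout. Tnni3 M92074_g_at read 346, 399, 392 and 310 on EOM arrays, against 72.4 to 446 with a median of 248 on TA_6h arrays and 140, 311, 220 and 202 on TA_1h arrays. EOM lay within the TA_6h range. The fitted log2 difference was 0.57 ± 0.29 for EOM minus TA_6h (95% interval -0.07 to 1.22, limma adjusted p = 0.129), and 0.78 ± 0.35 for EOM minus TA_1h (limma adjusted p = 0.111). Against TA_6h it was called at 0.82 without TA_6h sample 3 (limma adjusted p = 0.0277) and at 1.08 without the low-ratio arrays (limma adjusted p = 0.00343), and it was 0.32 without TA_6h sample 2. Against TA_1h it was called in 4 of 24 alternatives, among them without TA_6h sample 2 (limma adjusted p = 0.0494). Here and below, leaving out a sample of the group not compared keeps the difference. It changes the p-value only, through the spread that the 3 groups share in the fit and the adjustment. The other probe set, M92074_at, was at or under the floor on 15 of 16 arrays, with all EOM values below 0 and 102 on TA_6h array 2, and was not tested.

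Cardiac troponin T was higher in eye muscle. Tnnt2 (M80829_at) read 355, 582, 450 and 422 on EOM arrays. TA_6h arrays ranged from 83.0 to 328 with a median of 219, and TA_1h arrays read 200, 221, 185 and 32.3, the last below the floor. All 4 EOM arrays lay above all 12 TA arrays. The log2 difference was 1.21 ± 0.30 for EOM minus TA_6h (limma adjusted p = 0.0084), and 1.60 ± 0.37 for EOM minus TA_1h (limma adjusted p = 0.00729). The low array, TA_1h 2b, is a low-ratio array, and without TA_1h sample 2 the difference from TA_1h was 1.08 and no longer called (limma adjusted p = 0.0954). Scaling each array to the same median of its values above 0 gave 0.38 for EOM minus TA_6h, also not called. All probe sets then had a median of -0.66.

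Genes that mark heart muscle were set beside Tnnt2. Of 13 tested probe sets for Nppa, Nppb, Myl7, Myh6, Actc1, Myl4 and Ryr2, 4 were called higher and 5 lower in EOM than in TA_6h (69.2% called, beside 47.2% of all probe sets). Compared with TA_1h, 4 were called higher and 3 lower (53.8% called, beside 37.2%). Nppa, the atrial natriuretic peptide, was below 0 on every EOM array in all 4 of its probe sets, whereas no TA array holds values below 0. On TA_6h and TA_1h arrays E00698cds_s_at read at most 30.4 and 32.6, and X01118_at at most 96.5 and 107. E00903cds_s_at read at most 208 and 154 there, and E00775cds_s_at 99.7 to 371 and 109 to 358. For Nppa, too, the muscle and the way its arrays were summarised cannot be told apart. Myl4, an atrial and embryonic myosin light chain, read 1771 to 1991 (X51531cds_at) on EOM arrays, against 151 to 466 on TA_6h arrays and 124 to 426 on TA_1h arrays. The summed intensity of the 14 cardiac probe sets was 24235 to 32505 on EOM arrays, against 12935 to 38501 on TA_6h and 18796 to 27751 on TA_1h arrays.

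Fast troponin T was not called. Tnnt3 (rc_AI136540_at) read 16046, 20176, 15650 and 21298 on EOM arrays, inside the TA_6h range of 9517 to 44436 (median 18300). TA_1h arrays read 16749, 34176, 17748 and 41997. On the log2 scale the difference was 0.01 ± 0.19 for EOM minus TA_6h (95% interval -0.42 to 0.44, limma adjusted p = 0.968), and -0.50 ± 0.24 for EOM minus TA_1h (95% interval -1.02 to 0.03, limma adjusted p = 0.128). The sign depends on scaling, since scaling to the same median of values above 0 gave -0.82 for EOM minus TA_6h and quantile normalization 0.48, both called. The first moved all probe sets to a median of -0.66, the second to -0.04.

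The 5 Tpm1 probe sets disagreed. The files do not say which splice form each probe set reads, and the letter s in a probe set name marks probes shared by several transcripts, so signal from other tropomyosin genes is possible. The brightest, M15474cds_s_at, read 21086, 23109, 21562 and 22181 on EOM arrays, within 14943 to 51156 on TA_6h (median 26726) and 14543, 37907, 18738 and 60554 on TA_1h arrays. Its log2 difference was -0.27 ± 0.27 for EOM minus TA_6h and -0.36 ± 0.33 for EOM minus TA_1h (limma adjusted p = 0.423 and 0.429). Scaling to the same median of values above 0 made it -1.10 for EOM minus TA_6h, which was called (limma adjusted p = 0.0115). All probe sets then had a median of -0.66.

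A dimmer Tpm1 probe set had the largest called difference of the members against TA_6h. M60666_s_at read 1406, 1208, 1016 and 1028 on EOM arrays. TA_6h arrays ranged from 63.6 to 307 with a median of 274, and TA_1h arrays read 277, 294, 373 and 603. No EOM array overlapped a TA array. The fitted log2 difference was 2.58 ± 0.44 for EOM minus TA_6h (limma adjusted p = 0.000991), kept in all 24 alternatives with values from 1.75 to 3.16. TA_6h sample 4 averaged 68.2, and without it the TA_6h difference was 2.08 (limma adjusted p = 0.000119). For EOM minus TA_1h the difference was 1.65 ± 0.54 (limma adjusted p = 0.0357). Leaving out TA_6h sample 4 kept that difference, with limma adjusted p = 0.000984. The TA_1h call was lost in 10 of 24 alternatives: without any 1 of the 4 EOM samples or either TA_1h sample, with values of 1.28 to 2.01, with quantile normalization and without the filter, and with smaller values on scaling to the same median of values above 0 (0.81) and with only the low-ratio arrays (0.94), where TA_1h holds 1 array.

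Tpm1 M34134_s_at read 3750, 4403, 897 and 1864 on EOM arrays, against 646 to 1405 with a median of 806 on TA_6h arrays. TA_1h arrays read 763, 1147, 713 and 0.0602, the last again array 2b. EOM array 3 lay inside the TA range, and the EOM arrays spread 4.91-fold. The log2 difference was 1.40 ± 0.57 for EOM minus TA_6h (limma adjusted p = 0.0681), and 2.40 ± 0.70 for EOM minus TA_1h (limma adjusted p = 0.0222). The TA_1h call was lost without the low-ratio arrays, at 1.49 (limma adjusted p = 0.0879). It was also lost on scaling to the same median of values above 0, at 1.70 (limma adjusted p = 0.0666). Without TA_1h sample 2 the TA_1h difference was 1.29 (limma adjusted p = 0.253), and without EOM sample 3 the TA_6h difference was 1.85 and called (limma adjusted p = 0.0183). It was called as well without either TA_1h sample, at 1.40 (limma adjusted p = 0.0407). The fourth, rc_AI144767_s_at, lay below the floor on all EOM arrays and above it on 3 of 8 TA_6h arrays and 3 of 4 TA_1h arrays, up to 157, and was not called. Its EOM minus TA_1h difference of -0.83 passed in 4 alternatives, among them without TA_6h sample 2 (limma adjusted p = 0.0143), at the same difference. Its EOM samples, all set to the floor, had no spread. Its EOM minus TA_6h difference passed with low ratio as a batch term, at -0.78 (limma adjusted p = 0.0284).

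Tpm1 X02412_at varied most between arrays of the same sample. It read 10096, 12237, 9063 and 11847 on EOM arrays. TA_6h arrays read 17528 and 6813 for sample 1, 13127 and 5709 for sample 2, 180 and 12022 for sample 3, and 155 and 753 for sample 4, and TA_1h arrays read 387 and 20830 for sample 1 and 2948 and 37468 for sample 2. Paired arrays of TA_6h sample 3 thus differed 66.9-fold and those of TA_1h sample 1 53.9-fold, ranking 6 and 5 among 7640 probe sets in those pairs. The median absolute log2 difference between paired arrays was 0.26 to 0.52 over all probe sets and 0.34 to 0.98 over the members. With arrays in the same order, the middle Gapdh control read 19527 and 2184 for TA_6h sample 1 and 9700 and 856 for sample 2. It read 6698 and 31922 for TA_6h sample 3, and 20190 and 22046 for sample 4. On TA_1h arrays it read 1299 and 19479 for sample 1, and 1433 and 51038 for sample 2. The part of whatever moved the Gapdh control was not tested. On the log2 scale the X02412_at difference was 2.03 ± 0.98 for EOM minus TA_6h (95% interval -0.15 to 4.21, limma adjusted p = 0.113), and 0.97 ± 1.20 for EOM minus TA_1h (limma adjusted p = 0.56). Without TA_6h sample 1 the TA_6h difference was 2.72 and called (limma adjusted p = 0.0422), without TA_6h sample 4 it was 1.05, and without the low-ratio arrays the TA_1h difference was 1.89 and called (limma adjusted p = 0.000178). In that last setting TA_1h sample 2 was the array at 2948 alone, and sample 1 the log2 mean of 387 and 20830. Its p-value uses the spread between sample means and leaves out the 53.9-fold difference within sample 1.

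**Figure D3:**
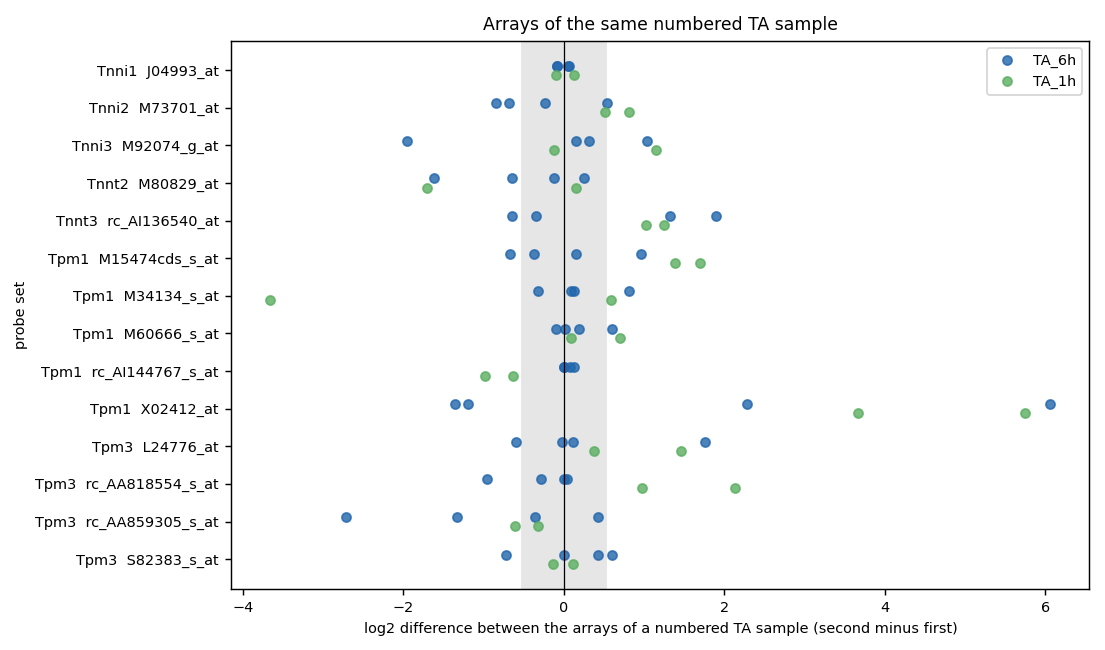
Log2 difference between the arrays of each numbered TA sample (second minus first) for the 14 tested probe sets, TA_6h and TA_1h; the grey band spans 0.52 on either side of 0, the largest of the 6 medians over all probe sets. Tnni1 J04993_at stays within the band in all 6 pairs, and Tpm1 X02412_at reaches 6.06.

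Tpm3 probe sets were called in opposite directions against TA_6h. S82383_s_at read 1799, 1725, 1806 and 1719 on EOM arrays, against 683 to 1621 with a median of 1067 on TA_6h arrays and 1095, 1182, 1339 and 1220 on TA_1h arrays. All EOM arrays lay above all TA arrays, and the EOM arrays differed by only 1.05-fold. The fitted log2 difference was 0.68 ± 0.16 for EOM minus TA_6h (limma adjusted p = 0.00648), except that scaling to the same median of values above 0, which moved all probe sets to a median of -0.66, turned it to -0.15. For EOM minus TA_1h it was 0.55 ± 0.20 (95% interval 0.10 to 0.99, limma adjusted p = 0.0539), not called, although it was called in 8 of 24 alternatives, among them without TA_6h sample 1 or 4 (limma adjusted p = 0.04 and 0.0251), at the same difference.

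The dimmer L24776_at ran the other way. It read 205, 133, 143 and 146 on EOM arrays. On TA_6h arrays it read 308, 204, 88.4 and 299 for samples 1 and 2 and 712, 701, 699 and 755 for samples 3 and 4, and on TA_1h arrays 470, 610, 338 and 933. EOM lay below all TA_1h arrays and overlapped TA_6h samples 1 and 2. The log2 difference was -1.30 ± 0.46 for EOM minus TA_6h (limma adjusted p = 0.0388), and -1.83 ± 0.56 for EOM minus TA_1h (limma adjusted p = 0.0272). The TA_6h call was lost in 12 of 24 alternatives and the TA_1h call in 7. TA_6h samples 3 and 4 are the low-ratio arrays: without low-ratio arrays the TA_6h difference was -0.39 (limma adjusted p = 0.303), and with low ratio as a batch term -0.50 (limma adjusted p = 0.222). Quantile normalization lost both calls, at -1.12 for TA_6h and -1.67 for TA_1h (limma adjusted p = 0.0982 and 0.0615). So did leaving out the filter, at -1.30 and -1.83 (limma adjusted p = 0.0706 and 0.0533). Scaling to the same median of all values lost the TA_6h call, at -1.19 (limma adjusted p = 0.0706). Both calls were lost without EOM sample 2, 3 or 4 and without either TA_1h sample, and the TA_6h call also without TA_6h sample 3 or 4, with values of -0.99 to -1.30 for TA_6h and -1.76 to -1.86 for TA_1h.

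The other 3 Tpm3 probe sets were not called. For rc_AA859305_s_at the readings were 383, 335, 538 and 331 on EOM arrays, within 49.7 to 476 on TA_6h (median 347) and 165 to 513 on TA_1h arrays apart from EOM array 3, with a log2 difference of 0.70 ± 0.42 for EOM minus TA_6h (limma adjusted p = 0.197). For rc_AA818554_s_at only EOM array 2 was above the floor, at 342, against TA_6h values of 29.1 to 173 (median 78.9) and TA_1h values of 35.9 to 292, and the log2 difference of EOM minus TA_6h was -0.07 ± 0.62 (limma adjusted p = 0.936), and that of EOM minus TA_1h -0.83 ± 0.76 (limma adjusted p = 0.425). Without EOM sample 2 they were -0.72 (limma adjusted p = 0.174) and -1.48, the second of them called (limma adjusted p = 0.0391). L24777_at was below 0 on all EOM arrays and above the floor on 3 of 12 TA arrays, at most 79.6, and was not tested.

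**Figure D4:**
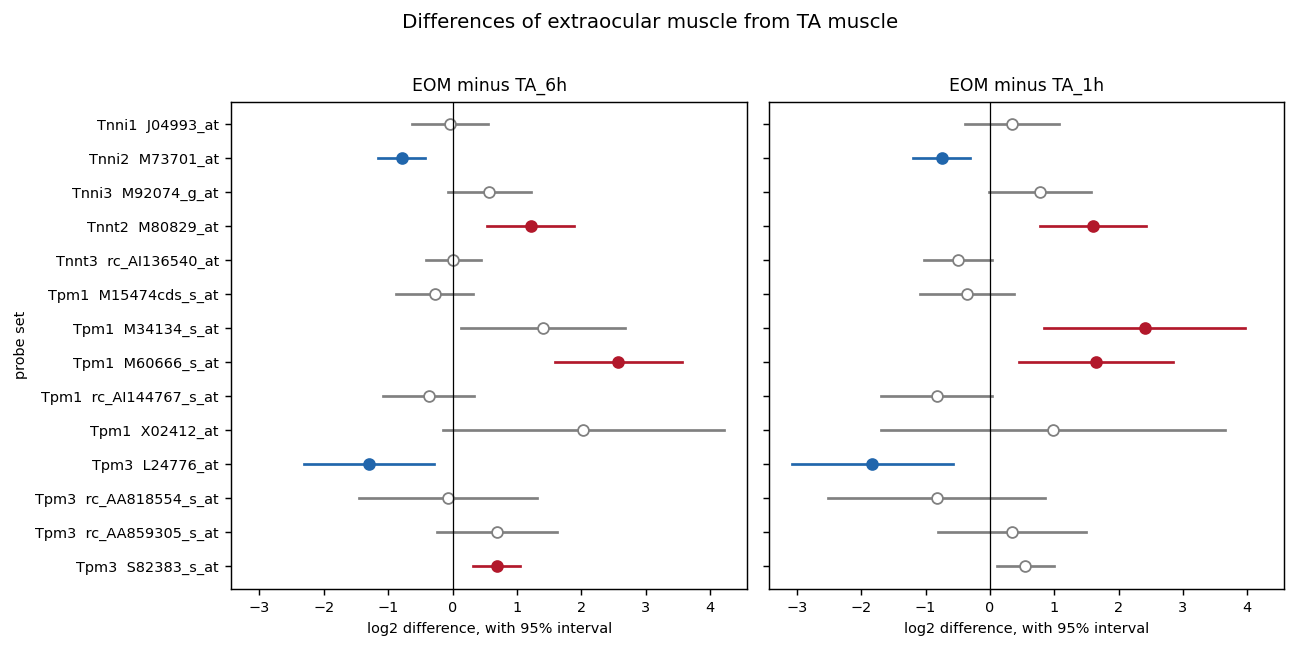
Log2 difference with its 95% interval for the 14 tested probe sets, EOM minus TA_6h (left) and EOM minus TA_1h (right); filled points are called, red higher and blue lower in EOM. Tnni2 M73701_at and Tpm3 L24776_at are called lower and Tnnt2 M80829_at and Tpm1 M60666_s_at higher in both panels.

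Smooth muscle and connective tissue also contain tropomyosin, so their markers are given beside the tropomyosin results. The smooth muscle and pericyte genes listed were Acta2, Myh11, Tagln, Cald1, Cnn1, Smtn, Des, Cspg4, Rgs5 and Pdgfrb, of which 8 are on the array. Of their 12 tested probe sets, 5 were called higher and 5 lower in EOM than in TA_6h (83.3% called, beside 47.2% of all probe sets). For TA_1h the counts were 4 higher and 2 lower (50% called, beside 37.2%). The sum over all 13 was 20108 to 24758 on EOM arrays, against 16967 to 34728 on TA_6h and 18823 to 26787 on TA_1h arrays. Des (X73524_at) made up a large part of it, at 8454 to 9377 on EOM, 8262 to 26837 on TA_6h and 9363 to 19901 on TA_1h arrays. Myh11, the smooth muscle myosin, read 586 to 1154 (X16262_s_at) on EOM arrays, against 8.92 to 339 on TA_6h and 61.3 to 284 on TA_1h arrays, whereas its probe set X16261_i_at and Cnn1, smooth muscle calponin, were below 0 on all EOM arrays. On TA arrays, which hold no values below 0, X16261_i_at read 14.8 to 137 in TA_6h and 12.5 to 42.0 in TA_1h. Cnn1 read 46.8 to 250 in TA_6h and 79.6 to 165 in TA_1h. Of 19 fibroblast probe sets, 8 were called higher and 1 lower than in TA_6h (47.4% called, near the share of all probe sets). Compared with TA_1h, 10 were called higher and 0 lower (52.6% called, beside 37.2%). The fibroblast sum was 125625 to 161716 on EOM arrays, against 59165 to 151622 on TA_6h and 51974 to 59488 on TA_1h arrays. The part of smooth muscle and fibroblasts in the Tpm1 and Tpm3 differences was not tested.

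Other genes of the thin filament and Z disc were called in both directions. Of 43 listed genes 25 were on the array, with 30 tested probe sets, of which 8 were called higher, 9 lower and 13 not called in EOM against TA_6h (56.7% called, beside 47.2% of all probe sets; median log2 difference -0.00083), and 5 higher and 9 lower against TA_1h (46.7% called, beside 37.2%). The called differences of largest size from TA_6h were in Acta2, smooth muscle actin (3.50 ± 0.65, X06801cds_i_at), Cald1, caldesmon (3.11 ± 0.36), Csrp3, muscle LIM protein (-2.79 ± 0.38), Cnn3, the acidic calponin (1.78 ± 0.17), Ldb3, a Z disc PDZ-LIM protein (-1.74 ± 0.21, rc_AA800216_at), and Actn2, alpha-actinin of the Z disc (-1.38 ± 0.16). These 6 kept their direction under all 3 other scalings. The list shares Acta2, Cald1 and Cnn1 with the smooth muscle list and Actc1 with the cardiac one. For Acta2 X06801cds_i_at only 3 of 8 TA_6h arrays were above the floor, and the other Acta2 probe sets gave 1.13 ± 0.39 (rc_AA900769_s_at, limma adjusted p = 0.0378) and 0.15 ± 0.40 (X06801cds_f_at, limma adjusted p = 0.781).

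The remaining partners of the complex, named after their values were seen, were Tpm2, Tpm4 and Tnnc2. Tpm2, beta-tropomyosin, was higher in EOM than in TA_6h by 1.09 ± 0.27 on the log2 scale (limma adjusted p = 0.0078), but by 0.26 and not called (limma adjusted p = 0.382) on scaling to the same median of values above 0. It was 0.77 for EOM minus TA_1h, which was not called (limma adjusted p = 0.0946). The Tpm4 probe sets gave 0.95 (J02780_at) and -1.25 (rc_AI105374_at) for EOM minus TA_6h, neither called. Tnnc2, the fast troponin C, differed by -0.04 ± 0.18 for EOM minus TA_6h (95% interval -0.44 to 0.36, limma adjusted p = 0.883), with a sign that depends on scaling: quantile normalization gave 0.48 (limma adjusted p = 0.04) and scaling to the same median of values above 0 gave -0.87 (limma adjusted p = 0.00408). The last scaling, used for Tpm2 as well, moved all probe sets to a median of -0.66.

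Between the labelled times of TA muscle no member was called. With limma, 0 of 14 members passed at an adjusted p under 0.05, and 0 of 14 at an unadjusted p under 0.05, with a background of 0% called and 424 of 7640 probe sets at an unadjusted p under 0.05. The median log2 difference of the members was -0.24 for TA_6h minus TA_1h, beside 0.01 over all probe sets. Tnnt3 averaged 20090 ± 5623 in TA_6h and 27668 ± 3118 in TA_1h (SD, n = 4 and 2 samples), a log2 difference of -0.51 ± 0.24 with a 95% interval of -1.03 to 0.02 (limma adjusted p = 0.89). The interval for X02412_at, -3.73 to 1.61, was the widest, so a difference of several fold in either direction could not be told from none. Without the low-ratio arrays X02412_at became the 1 member called, with TA_6h minus TA_1h at 1.75 (limma adjusted p = 0.0182). That setting leaves TA_6h with samples 1 and 2, and TA_1h with arrays reading 387, 20830 and 2948. Over all 7640 probe sets it called 33 higher and 12 lower.

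For the brightest probe set of each gene, the 3 genes most like it over 10 numbered samples were taken from 3310 probe sets with a single symbol of another gene that exceeded the floor on every array, by Pearson correlation of log2 values, as a description across EOM and TA arrays that were summarised differently. Tnnt3 was nearest to Atp2a1, the fast calcium pump of the sarcoplasmic reticulum (r = 0.975), followed by Schip1 and Pfkm, muscle phosphofructokinase (r = 0.899 and 0.799). Over the 6 TA samples alone the value for Atp2a1 was 0.983. Tpm1 M15474cds_s_at was nearest to Pygm, muscle glycogen phosphorylase (r = 0.951), then Cited2 and Atp5f1e, and Tpm3 S82383_s_at to Myl4 (r = 0.990), then the ribosomal protein genes Rpl23 and Rps3a. Tnni2 was nearest to Eif2b4, Ldb3 and Ddr1 (r = 0.985, 0.982 and 0.979), and Tnnt2 to Agxt, Ntf3 and Add3 (r = 0.968, 0.958 and 0.954). Tnni1 was nearest to Itpr3, an inositol trisphosphate receptor (r = 0.952), then Rab5b and Cxcl14, and Tnni3 to Rpl39, Ninj1 and Gstm2 (r = 0.912, 0.908 and 0.901).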

How the data were processed

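The authors deposited an intensity (linear scale) for each probe set on each array, already scaled: read from the values, the mean without the highest and lowest 2% is 800 on every array. The method that summarised the probes was not given in the sources used here. Gene names come from GEO's platform table, and all 16 members matched a RefSeq entry by gene number with the same symbol. Intensities were raised to the floor, log2 was taken, arrays of a number and group were averaged, and 7640 probe sets exceeding the floor on 4 or more arrays, without the 59 controls, entered limma 3.58.1 under R version 4.3.3 (functions lmFit and eBayes, 3 groups in a single fit, 7 residual and 2.83 prior degrees of freedom, Benjamini-Hochberg over all tested). Every adjusted p is from this fit or the named alternative, and the number of arrays limits the precision. The fit was tested on simulated data. The members, lists and tests were chosen with earlier results of these data known. All members are named, with up to 6 called genes of largest difference from the thin filament list and the 3 most alike genes per member gene. Alternatives changed scaling, floor, filter, averaging, variance trend, replicate block, low-ratio arrays and samples left out. Tables and figures were made with Python 3.11.15, pandas 2.3.3 and matplotlib 3.10.9.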

Additional observations from a re-analysis of the deposited data

Results flagged for a closer look

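Among 27 sets of a probe set and a group of 4 numbered samples, 3 had a sample far from the others; chance alone gives about 1 in 20, a rate that does not hold for rc_AI144767_s_at and rc_AA818554_s_at, where samples were set to the floor. Tpm1 M60666_s_at had a mean intensity of 68.2 in TA_6h sample 4, the lowest of that group. Tpm1 rc_AI144767_s_at had 149.7 in TA_6h sample 2, far above the other TA_6h samples. Tpm3 rc_AA818554_s_at had 342.4 in EOM sample 2, while the other EOM samples were at or under the floor.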

How the results depend on the processing

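The members called between EOM and TA_1h, 5, became 2 with quantile normalization, beside 1389 higher and 1363 lower of all 7640 probe sets. They became 3 with the stricter filter of more than the floor on all 16 arrays (9 members tested), beside 923 higher and 589 lower of 4041. Without the low-ratio arrays they became 8, beside 1640 higher and 1944 lower of 7640. With 1 EOM or TA_6h sample left out they numbered 3 (without EOM sample 3 or 4) to 7 (without TA_6h sample 2). Over all probe sets 1243 higher and 1269 lower were called without EOM sample 3, and 1336 higher and 1474 lower without TA_6h sample 2. Between TA_6h and TA_1h, 0 became 1 without the low-ratio arrays (Tpm1 X02412_at, where the sign turned to 1.75, limma adjusted p = 0.0182). Over all 7640 probe sets that setting called 33 higher and 12 lower. With only the low-ratio arrays TA_1h holds 1 array, and without a TA_1h sample it holds 1 sample, which is assumed to vary like the other groups. With only the low-ratio arrays as TA, more members and more of all probe sets were called in every comparison than in the main fit. Without a TA_1h sample, fewer of both were called between EOM and TA_1h. With the sample number as a replicate block, 5 members were called in each EOM comparison and 0 in the TA comparison. The calls over all probe sets were 1642 higher and 1865 lower against TA_6h, and 1244 higher and 1296 lower against TA_1h. No label says that numbers pair samples, so the main fit did not pair them. Correlations of deviations between EOM and TA_6h were 0.105, 0.021, 0.032 and 0.071 for equal numbers and -0.085 to 0.054 for unequal ones. Between TA_6h and TA_1h equal numbers gave 0.389 and -0.418. These values cannot decide whether numbers pair samples. Scaling to the same median of values above 0, which leaves out EOM's values below 0, moved the median of all probe sets for EOM minus TA_6h to -0.66. It called 1 member higher and 5 lower, beside 663 higher and 3852 lower of 7802 probe sets. It turned Tnnt3 to -0.82 and Tpm3 S82383_s_at to -0.15. The same scaling on all values, added after the data were seen, gave a median of -0.02. It called 4 members higher and 1 lower, beside 1862 higher and 1712 lower of 7610. Quantile normalization also gave 4 members higher and 1 lower, beside 1704 higher and 1792 lower of 7640. Of 990 probe set values under alternatives, 907 kept their direction or stayed uncalled on the same side of the threshold, 39 lost a call, 41 gained one and 3 turned sign with a call involved. Causes were not tested.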
